A study of Mus musculus with 6 samples.

Results

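The nuclear copies of mitochondrial genes described here are 10 unprocessed pseudogenes of the mouse nuclear genome, Gm29216, Gm28661, Gm10925, Gm28437, Gm28438, Gm10222, Gm28439, Gm13339, Gm13340 and Gm13341, out of 54532 rows in the deposited table. They were chosen by sequence, as annotated nuclear genes whose transcripts share long stretches with mt-Co1, mt-Co2, mt-Co3, mt-Nd2, mt-Nd3, mt-Nd4, mt-Nd4l or mt-Atp6, and they were selected on these stretches with the low counts of some of those mitochondrial genes already known. The shared stretches are therefore given as a description, without a test. The 6 libraries were made from whole-kidney RNA of 2 groups of mice, with 3 pools of 3 mice in each. Controls were KsprtTA mice, which carry the reverse tetracycline transactivator under the Ksp promoter of renal tubular epithelium and which the labels give as WT. KSPAPN mice carried the same KsprtTA allele and a TRE-adiponectin transgene, so that tubular epithelial cells overexpress adiponectin when doxycycline is given. For 4 days both groups ate chow that held 600 mg/kg doxycycline. The study used male mice of the C57BL/6 background, and the sources used here do not give the age of those sequenced.

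Mitochondria keep a small circular genome that encodes 13 proteins of the respiratory chain and the ATP synthase, together with the ribosomal and transfer RNAs needed to translate them. Over evolutionary time, pieces of this genome have been inserted into the chromosomes of the nucleus, where they are known as nuclear mitochondrial segments and are generally held not to make protein. A recent insertion still matches its source base for base, and a sequencing read that falls in such a stretch matches both places equally well. The kidney is rich in mitochondria, above all in the proximal tubule and thick ascending limb, and mitochondrial transcripts are among the most abundant in its RNA.

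The copies lay in 2 clusters, given here by GENCODE M21 coordinates on GRCm38. Each copy has a single exon and lies on the minus strand. The 7 copies on chromosome 1, at chr1:24611535-24616197, followed the order of the mitochondrial genome between positions 6390 and 11042 without a break of more than 1 base. By position, this span of 4663 bases takes in mt-Co2, mt-Atp8, mt-Atp6, mt-Co3, mt-Nd3, mt-Nd4l and 5 tRNA genes whole and mt-Co1 and mt-Nd4 in part. No protein-coding gene overlapped it, and the nearest, Col19a1, was 24063 bases away. The 3 copies on chromosome 2, at chr2:22587291-22590533, followed mitochondrial positions 4442 to 7696. This cluster lay within Myo3a, a myosin gene on the opposite strand, which had 0 to 10 counts per library.

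On chromosome 1 the copies were almost or fully identical to their source. Gm28661 (ENSMUSG00000102070) matched mt-Co2, the subunit II gene of cytochrome c oxidase, at 681 of 681 bases. Gm10925 (ENSMUSG00000100862) matched mt-Atp6, which encodes a membrane subunit of the ATP synthase, at 678 of 678. Gm28437 (ENSMUSG00000101111) matched mt-Co3, cytochrome c oxidase subunit III, at 783 of 783. Of the copies of complex I subunits, Gm10222 (ENSMUSG00000067736) matched mt-Nd4l at 294 of 294 bases and Gm28439 (ENSMUSG00000100131) the first 876 of the 1378 bases of mt-Nd4. Gm28438 (ENSMUSG00000101939) differed from mt-Nd3 at 1 of 345 bases, T3C, where the mitochondrial base is given first and positions count from 1 at the first base of the mitochondrial transcript. Gm29216 (ENSMUSG00000101249) matched the last part of mt-Co1, the catalytic subunit gene of cytochrome c oxidase, at 482 of 483 bases, with A1066T as the difference, while its first 9 bases did not align. On chromosome 2 the copies had diverged. Gm13340 (ENSMUSG00000083563) differed from mt-Co1 at 37 of 1545 bases, Gm13341 (ENSMUSG00000083863) from mt-Co2 at 16 bases and a gap of 12, and Gm13339 (ENSMUSG00000082884) from mt-Nd2, another complex I subunit gene, at 17 of 510.

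The stretches below show what separates the clusters, from the GENCODE M21 transcripts, 5′ to 3′, with capitals at bases that differ between the mitochondrial gene and the diverged copy. Bases 403 to 522 of mt-Co2 were chosen as the window with the most differences from Gm13341, and the same window of Gm28661 is identical to mt-Co2 throughout.
mt-Co2: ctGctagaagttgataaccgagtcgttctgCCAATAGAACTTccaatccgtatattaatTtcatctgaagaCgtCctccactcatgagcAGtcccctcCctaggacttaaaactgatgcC
Gm28661: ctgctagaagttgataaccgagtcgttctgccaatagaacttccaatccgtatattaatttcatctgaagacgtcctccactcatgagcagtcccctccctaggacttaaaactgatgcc
Gm13341: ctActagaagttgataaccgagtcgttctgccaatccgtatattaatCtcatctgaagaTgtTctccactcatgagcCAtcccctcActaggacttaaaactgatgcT
The substitutions of Gm13341 in this window were G405A, T462C, C474T, C477T, A492C, G493A, C501A and C522T, and the longest run of capitals in mt-Co2 is the gap.

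For mt-Co1, bases 1063 to 1182 are the first window that a copy from each cluster holds. The capital in Gm29216 marks A1066T, and those in mt-Co1 and Gm13340 mark T1072C, C1134T, T1179C and G1180A.
mt-Co1: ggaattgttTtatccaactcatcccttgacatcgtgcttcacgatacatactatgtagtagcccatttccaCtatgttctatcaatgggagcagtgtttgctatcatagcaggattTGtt
Gm29216: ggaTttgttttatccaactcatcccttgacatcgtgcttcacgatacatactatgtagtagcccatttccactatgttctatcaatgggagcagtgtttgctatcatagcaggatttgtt
Gm13340: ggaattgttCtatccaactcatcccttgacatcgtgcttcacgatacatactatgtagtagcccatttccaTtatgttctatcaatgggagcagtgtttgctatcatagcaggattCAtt
The start of mt-Nd3 holds T3C, the single base by which Gm28438 can be told from it.
mt-Nd3: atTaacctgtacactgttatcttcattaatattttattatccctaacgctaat
Gm28438: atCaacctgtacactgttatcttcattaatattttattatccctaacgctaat
For mt-Nd2, bases 662 to 781 are the window with the most differences, A668G, C681T, T711C, T726C, C759T, C780T and T781C.
mt-Nd2: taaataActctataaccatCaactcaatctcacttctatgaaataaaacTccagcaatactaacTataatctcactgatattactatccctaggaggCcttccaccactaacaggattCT
Gm13339: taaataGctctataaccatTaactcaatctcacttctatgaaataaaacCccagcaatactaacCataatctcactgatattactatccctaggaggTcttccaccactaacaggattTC

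Among the differences of the chromosome 2 copies, most were transitions at the third codon position of the source gene. Gm13340 had 33 transitions among its 37 substitutions, and 31 of the 37 were at codon position 3. For Gm13341 these numbers were 13 and 14 of 16, and for Gm13339 they were 15 and 12 of 17.

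Cut into all possible stretches of 100 bases, 5 copies held none that differed from a mitochondrial transcript. These were Gm28661 with 582 stretches, Gm10925 with 579, Gm28437 with 684, Gm10222 with 195 and Gm28439 with 777. Only 3 of the 246 stretches of Gm28438 and 13 of the 393 of Gm29216 were distinct from the mitochondrial transcripts. The chromosome 2 copies were mostly distinct, as 80 of the 1446 stretches of Gm13340, 88 of the 573 of Gm13341 and 30 of the 411 of Gm13339 were identical to one. No other nuclear gene of the annotation held an identical stretch of 100 bases. At 50 bases, 5 further genes did. Of these, 4 had a row in the table, with 0 or 1 count in every library. For a read within an identical stretch the sequence cannot tell the copy from the mitochondrial gene, so the counts of the chromosome 1 copies and of their matching genes are uncertain as levels of either. The sources used here do not say how the authors treated reads with several matches, and the part of that choice in the values below was not tested.

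All 10 copies had counts in every library. The most counted was Gm28661, with 3138, 3701 and 3107 reads counted in Control against 3406, 4536 and 4369 in KSPAPN. For Gm10925 the Control libraries had 2383, 2950 and 2953 and the KSPAPN libraries 3167, 4696 and 4160. For Gm28437 they had 2028, 2111 and 1943 against 2075, 2835 and 2761. By these counts, not scaled to library size, KSPAPN replicate 2 was the highest library in each of the 3 and KSPAPN replicate 1 was within or near the Control range. Scaled to library size (CPM), KSPAPN replicate 1 was the lowest library for Gm28661, at 153, and for Gm28437, at 93.1. Gm28439, the partial copy of mt-Nd4, had 989, 1370 and 1165 in Control against 1338, 2006 and 2117. Gm29216, the partial copy of mt-Co1, had 1328, 1327 and 1172 against 1305, 1762 and 1711. Both shorter complex I copies were lower, with 359 to 739 counts for Gm10222 and 199 to 446 for Gm28438. Of the chromosome 2 copies, Gm13340 had 439, 281 and 240 in Control against 284, 437 and 384. Gm13341 had 218, 135 and 108 against 109, 257 and 282, and Gm13339 between 15 and 33 counts in all 6 libraries.

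Per length, levels were compared as FPKM (fragments scaled by transcript length and by a value for each library). The 7 copies on chromosome 1 were at 31.0 to 379 and the 3 on chromosome 2 at 1.43 to 20.9. The ranges of the 2 clusters therefore did not overlap in any library. The pairs of copies that match the same gene show this side by side. Gm29216 and Gm13340 both match mt-Co1, and their mean FPKM over the 6 libraries was 152 and 11.7. Gm28661 and Gm13341 both match mt-Co2, at 285 and 14.4 FPKM. Within chromosome 1, the mean was 261 FPKM for Gm10925, 153 for Gm28437, 94.3 for Gm10222, 89.0 for Gm28439 and 48.2 for Gm28438. Within a library, Gm10925 was above Gm28437, Gm29216 above Gm10222 and Gm28439 above Gm28438 in 6 of 6 libraries. The order of other neighbours on chromosome 1 was less regular. Gm28661 was above Gm10925 in 5 of 6 libraries, Gm10222 above Gm28439 in 5 and Gm28437 above Gm29216 in 3. On chromosome 2, Gm13341 was above Gm13340 in 5 of 6 libraries, and Gm13339, at 1.43 to 3.54 FPKM, lay below both.

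The copies stood high among annotated pseudogenes. Gm28661 and Gm10925 ranked 1 and 2 by mean count of 13048 pseudogenes in the table, Gm28437 ranked 4, Gm28439 ranked 5 and Gm29216 ranked 6. The others ranked 12 (Gm10222), 18 (Gm13340), 22 (Gm28438), 36 (Gm13341) and 202 (Gm13339). Together the 10 held 25.9% to 39.2% of all counts on pseudogenes, while their transcripts made up 0.0708% of the summed pseudogene length.

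**Figure D1:**
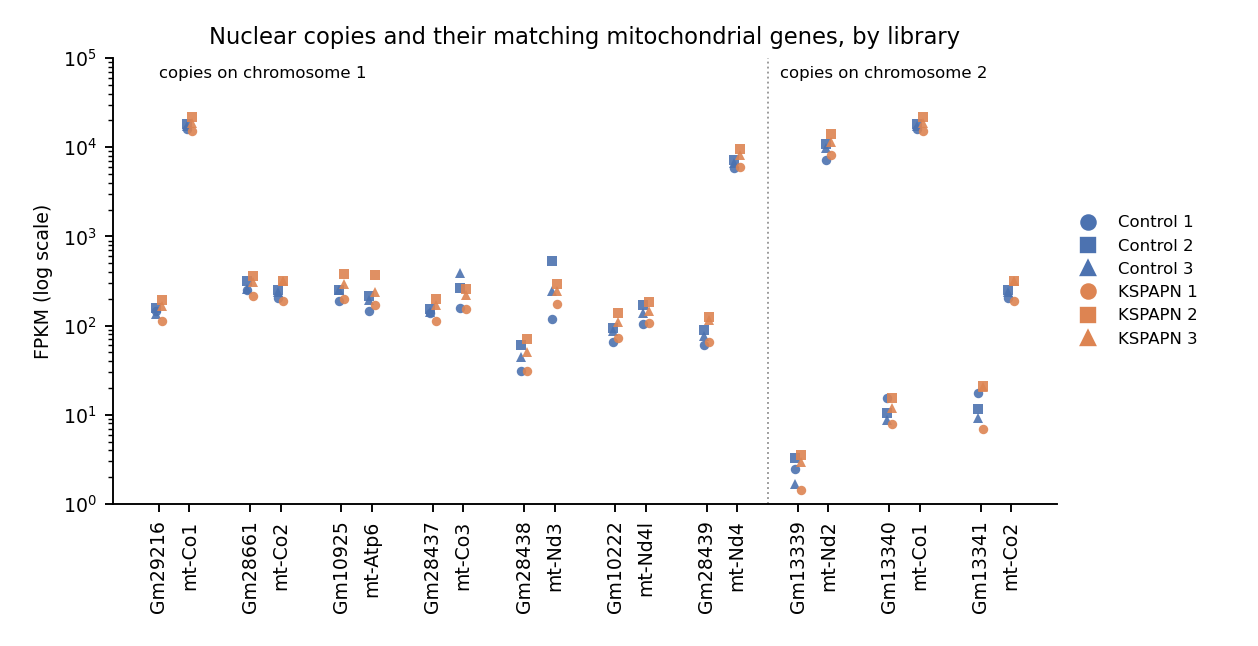
FPKM (log scale) of each nuclear copy and of its matching mitochondrial gene in the 3 Control and 3 KSPAPN libraries, with 1 point per library; mt-Co1 and mt-Co2 appear once for each of their 2 copies. The copies on chromosome 1 lie between 31.0 and 379 FPKM and those on chromosome 2 between 1.43 and 20.9, while mt-Co1, mt-Nd4 and mt-Nd2 all lie above them.

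Set beside the matching gene, the copies ranged from about equal to far lower. For Gm28661 and Gm10925 the copy had about as many counts as the mitochondrial gene or more. For each count on mt-Co2, Gm28661 had 1.23, 1.23 and 1.08 counts in the Control libraries, and 1.12, 1.15 and 0.970 in KSPAPN. For mt-Atp6, Gm10925 had 1.29, 1.17 and 1.28 in Control against 1.18, 1.03 and 1.25. The ratio to the matching gene was lower for the other chromosome 1 copies that span nearly all of their gene. It was 0.546 to 0.744 for Gm10222 to mt-Nd4l, 0.360 to 0.876 for Gm28437 to mt-Co3 and 0.113 to 0.259 for Gm28438 to mt-Nd3. The copies of mt-Co1, mt-Nd4 and mt-Nd2 were far below their gene. Per 1000 counts of the matching gene, Gm28439 had 6.61 to 9.04, Gm29216 had 2.40 to 2.87, Gm13340 had 0.510 to 0.949 and Gm13339 had 0.0845 to 0.168. Gm13341, the diverged copy of mt-Co2, had 35.9 to 85.3 per 1000. These ratios of counts are not scaled to length. Gm28439, Gm29216 and Gm13339 cover 63.6%, 31.3% and 49.1% of their gene, while Gm13340 and Gm13341 align over the whole of theirs.

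As a share of the joint counts, Gm28661 held 55.1% in Control replicate 1 (95% Wilson interval 53.8% to 56.4%) and 49.2% in KSPAPN replicate 3 (48.2% to 50.3%). Gm28437 held 26.5% in Control replicate 3 (25.5% to 27.5%) and 46.7% in Control replicate 1 (45.2% to 48.2%). Such intervals cover counting error only, and in Gm28437 the 3 Control libraries differed by more than it. Together, the 5 chromosome 1 copies that span nearly all of their gene held 50.1%, 42.2% and 40.6% of the joint counts in Control. In the KSPAPN libraries the shares were 46.8%, 46.7% and 46.8%, all within the Control range.

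**Figure D2:**
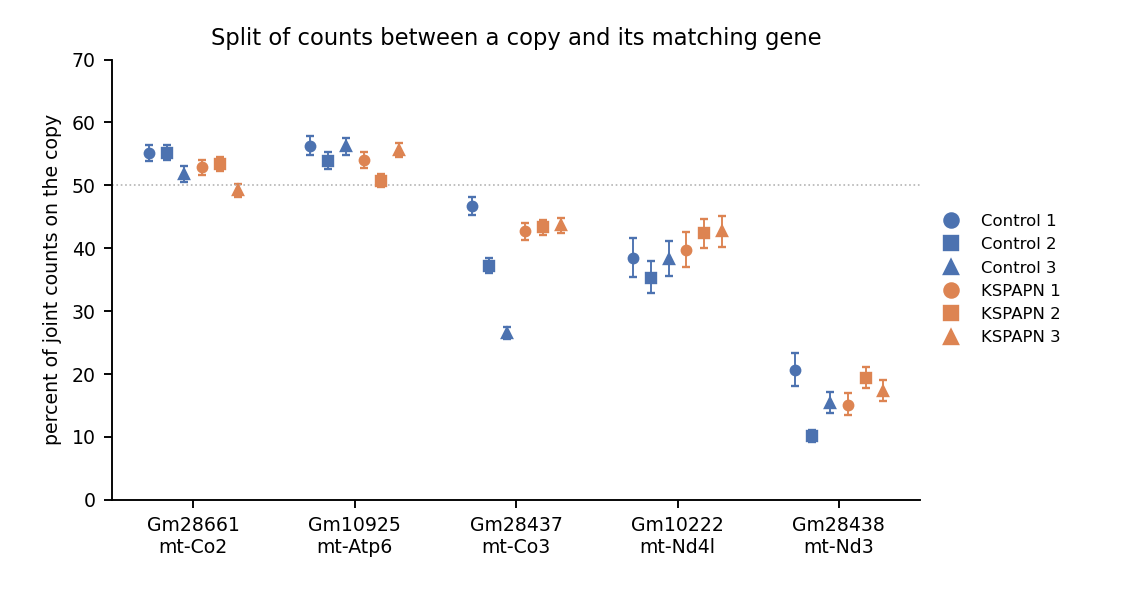
Percent of the joint counts of a copy and its matching gene that fell on the copy. The 5 copies shown are those on chromosome 1 that span nearly all of their gene. Each point is 1 library, with 95% Wilson intervals for counting error, and the dotted line is an equal split. Gm28661 and Gm10925 lie close to or above the line in all 6 libraries, and Gm28438 lies between 10.1% and 20.6%.

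The level of the mitochondrial genes differed with their place relative to the chromosome 1 span. Of the 13 protein-coding genes, the 6 wholly inside it were at 12.4 to 534 FPKM. These were mt-Co2 (191 to 318), mt-Co3 (153 to 391), mt-Atp6 (146 to 367), mt-Nd3 (119 to 534), mt-Nd4l (104 to 185) and mt-Atp8 (12.4 to 30.8). The 5 outside it, mt-Cytb, mt-Nd1, mt-Nd2, mt-Nd6 and mt-Nd5, were at 3253 to 22371 FPKM. Those partly inside it were as high as the genes outside, with mt-Co1 at 15087 to 22130 FPKM and mt-Nd4 at 5857 to 9644. No protein-coding gene inside the span reached the lowest of the others in any library. No test was made, since these genes come from the same molecule and the same libraries, and their levels had been seen when the copies were chosen.

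The share of a gene's sequence found in nuclear transcripts moved with this order, with exceptions. For mt-Co2, 582 of 585 stretches of 100 bases were found in a nuclear transcript, for mt-Atp6 579 of 582, for mt-Co3 684 of 685, for mt-Nd3 243 of 249 and for mt-Nd4l 195 of 198. The share was 777 of 1279 for mt-Nd4, 446 of 1446 for mt-Co1 and 30 of 939 for mt-Nd2, and 0 for mt-Cytb, mt-Nd1, mt-Nd5 and mt-Nd6. mt-Atp8, a small ATP synthase subunit gene, went against the order by this measure, with the lowest level and 0 of its 105 stretches in an annotated nuclear transcript, although it lies inside the span. No copy of mt-Atp8 is annotated there, and the chromosomal sequence was not compared, so its 0 covers annotated transcripts only. Both ribosomal RNA genes, with 0 such stretches, were also low, at 575 to 880 FPKM for mt-Rnr1 and 408 to 749 for mt-Rnr2, in libraries enriched with oligo(dT). Whether the mitochondrial RNAs inside the span are less abundant in these kidneys cannot be told apart from how their reads were counted.

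For the 5 genes inside the span that have an annotated copy, the sum of copy and gene stayed below the genes outside it. The sums of the genes partly inside the span were within the range of the genes outside. They were 15201 to 22326 FPKM for mt-Co1 with Gm29216 and 5918 to 9769 for mt-Nd4 with Gm28439. If reads with several matches were left out, they are in neither count. The sum could then not restore them, so it does not show whether such reads were lost. The summed FPKM of copy and gene was 405 to 681 for mt-Co2 with Gm28661, 336 to 746 for mt-Atp6 with Gm10925 and 266 to 533 for mt-Co3 with Gm28437. For mt-Nd3 with Gm28438 it was 150 to 595, and for mt-Nd4l with Gm10222 it was 170 to 323. Against mt-Cytb of the same library, which shares no stretch with the nuclear transcripts, the 5 genes alone were at 0.733% to 3.28% and the sums with their copies at 1.06% to 3.65%.

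**Figure D3:**
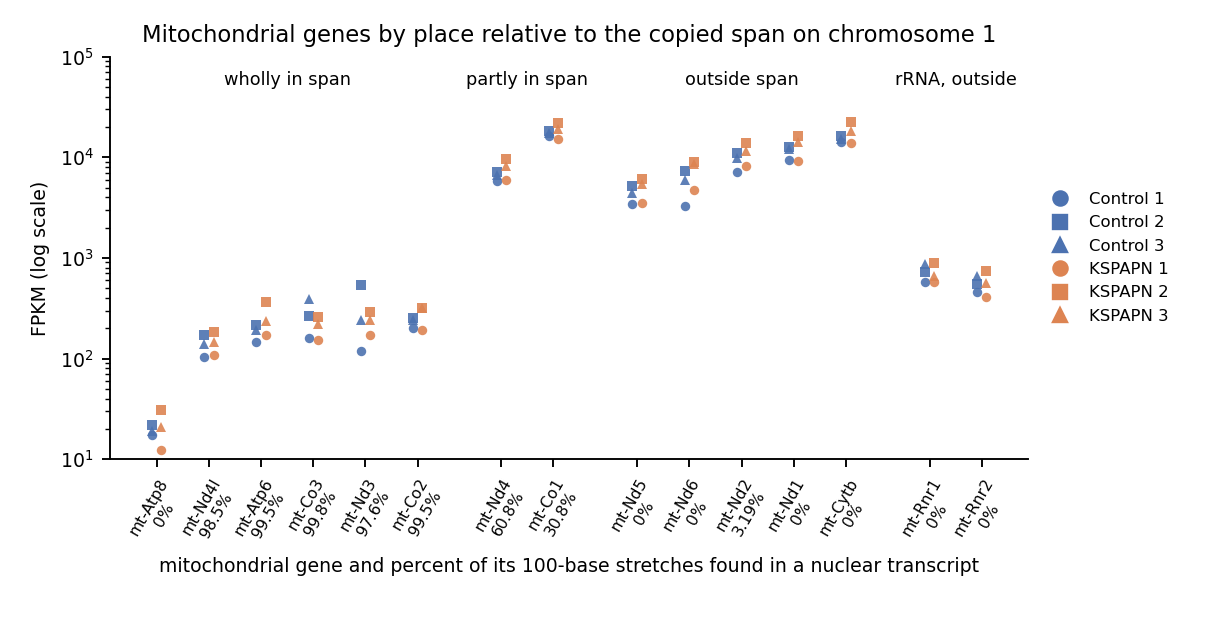
FPKM (log scale) of the 13 protein-coding and 2 ribosomal RNA genes of the mitochondrial genome in 6 libraries, grouped by whether they lie wholly, partly or not at all in the chromosome 1 span. Under each name is the percent of its 100-base stretches found in an annotated nuclear transcript, and no copy of mt-Atp8 is annotated. The 6 genes inside the span stay at or below 534 FPKM and the other protein-coding genes at or above 3253.

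Between KSPAPN and Control, no copy passed the test. In the edgeR quasi-likelihood fit over all 16017 genes tested, 2.65% of genes were called at an adjusted p under 0.05 (Benjamini-Hochberg), and 0 of the 10 copies were, with 0 also at an unadjusted p under 0.05, which 18.7% of all genes tested passed. All 10 passed the filter on low counts. Their log2 fold changes, KSPAPN against Control, ran from 0.027 to 0.44 with a median of 0.15, beside a median of 0.012 over all genes tested. The counts of the groups, scaled to library size (CPM), overlapped for all 10, while the groups were apart for 24.5% of the genes tested. KSPAPN replicate 2 was the highest of the 6 libraries for each copy, and KSPAPN replicate 1 was below the highest Control for each and the lowest of all for 6.

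Gm28439 had the highest fold change, at 0.44 (SE 0.21, adjusted p = 0.304). Its CPM were 68.1 ± 13.2 (SD, n = 3) in Control and 92.5 ± 28.3 in KSPAPN. For Gm10222 the log2 fold change was 0.38 (SE 0.21, adjusted p = 0.371), and for Gm10925 it was 0.35 (SE 0.19, adjusted p = 0.368). Gm28661 was at 0.12 (SE 0.17, adjusted p = 0.757) and Gm28437 at 0.15 (SE 0.16, adjusted p = 0.682). The call depended on the filter on low counts and on 1 library. Without that filter, Gm28439 (0.44, adjusted p = 0.00397) and Gm10925 (0.35, adjusted p = 0.0335) were past the threshold in edgeR. Without KSPAPN replicate 1, both passed as well, at 0.69 (adjusted p = 0.0229) and 0.57 (adjusted p = 0.0453). Without KSPAPN replicate 2, 6 of the 10 copies, Gm29216, Gm28661, Gm28437, Gm28438, Gm13339 and Gm13340, had fold changes below 0, down to -0.21 for Gm13340.

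The 8 matching genes did not pass the test either, nor did any other of the 13 protein-coding genes. In the same edgeR fit, mt-Atp6 had a log2 fold change of 0.48 (SE 0.23, adjusted p = 0.299) and mt-Co2 of 0.25 (SE 0.17, adjusted p = 0.479). mt-Co3 and mt-Nd3 were the only protein-coding genes below 0, at -0.36 (SE 0.28, adjusted p = 0.522) and -0.34 (SE 0.41, adjusted p = 0.711), while their copies Gm28437 and Gm28438 were above 0. Each of these values turned with 1 Control library. Without Control replicate 3, mt-Co3 was at 0.0084, and without Control replicate 2, mt-Nd3 was at 0.39. Control replicate 3 had 5394 counts on mt-Co3, against 2314 and 3557 in the other Control libraries, and Control replicate 2 had 3225 on mt-Nd3, against 767 and 1478. The tRNA genes on either side of mt-Nd3 were also highest in Control replicate 2, with 327 counts on mt-Tg against 74 and 169, and 202 on mt-Tr against 54 and 97. This was not particular to them. Control replicate 2 was also the highest Control library for mt-Th (923 against 174 and 422) and mt-Tl2 (598 against 113 and 327). For mt-Tc and mt-Te, Control replicate 3 was. Gm28437 did not stand out in Control replicate 3, with 114 CPM against 112 and 125 in the other Control libraries. Gm28438 had 364 counts in Control replicate 2, the most of the Control libraries, and 446 in KSPAPN replicate 2. The calls of matching genes also depended on the filter and on 1 library. Without the filter on low counts, mt-Atp6 (0.48, adjusted p = 0.000514) and mt-Co3 (-0.36, adjusted p = 0.0210) passed in edgeR. Without KSPAPN replicate 1, mt-Co2 did (0.47, adjusted p = 0.0358).

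**Figure D4:**
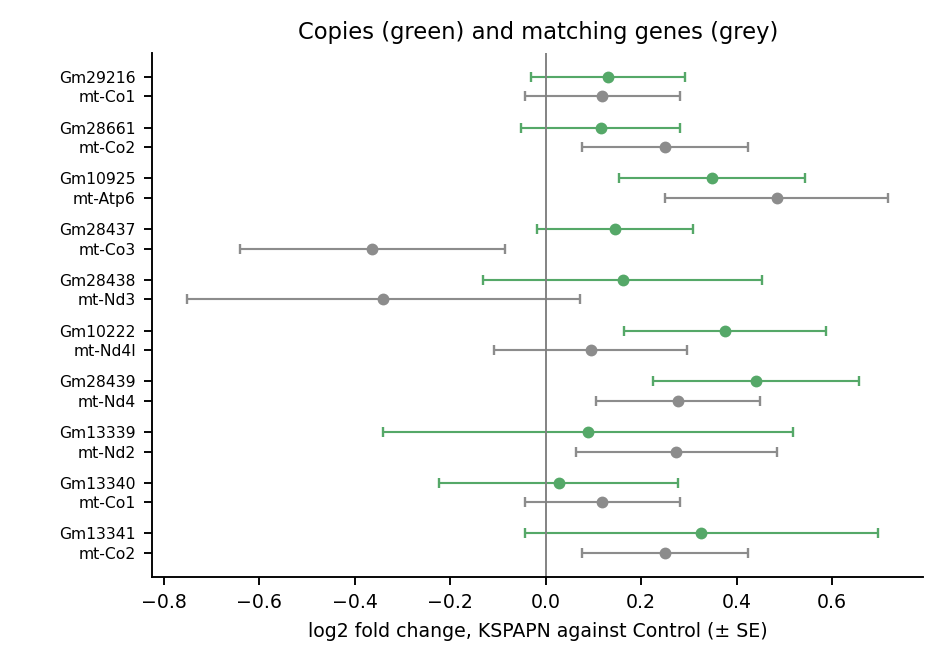
Log2 fold change, KSPAPN against Control, with its standard error from edgeR for each copy (green) and its matching gene (grey). All 10 copies are above 0 and none passed an adjusted p of 0.05; mt-Co3 and mt-Nd3 are below 0.

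The ratio of a copy to its matching gene was then compared between the groups, which sets aside what both share in a library. Of the 10 log2 ratios, 5 were higher and 5 lower in KSPAPN. With 3 libraries against 3, the two-sided exact permutation test over 20 arrangements cannot give a p below 0.1, and only Gm10222 reached it. Its ratio to mt-Nd4l was 0.627, 0.546 and 0.620 in Control and 0.660, 0.735 and 0.744 in KSPAPN, so that the groups did not overlap. The difference was 0.26 on the log2 scale (SE 0.08, exact permutation p = 0.1, Benjamini-Hochberg adjusted over the 10 ratios 0.8). For Gm28661 the difference was -0.13 (SE 0.10, exact permutation p = 0.3), for Gm10925 it was -0.12 (SE 0.10, exact permutation p = 0.3) and for Gm29216 it was -0.0036 (SE 0.10, exact permutation p = 1). Gm28437 had the largest difference in size, 0.41, with an SE of 0.37 (exact permutation p = 0.4).

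For some pairs the ratio varied less over the 6 libraries than either level did. The coefficient of variation of the ratio was 8.23% for Gm10925, where that of the CPM was 26.2% for the copy and 34.9% for mt-Atp6. For Gm28661 it was 8.75%, against 18.4% for the copy and 21.2% for mt-Co2, and for Gm29216 it was 7.25%, against 17.9% for the copy and 13.1% for mt-Co1. For Gm10222 and Gm28439 the ratio varied by 11.5% and 11.9%, also less than either level. For Gm28437 and Gm28438 the ratio varied by 26.8% and 26.5%, the copies by 18.3% and 32.7% and the mitochondrial genes by 36.3% and 53.8%. For the chromosome 2 copies Gm13340, Gm13339 and Gm13341 the ratio varied by 25.3%, 26.7% and 34.8%. Each was below the variation of the copy but above that of the matching gene, at 13.1%, 23.7% and 21.2%. Both members of a pair come from the same libraries, so these values describe 6 points and were not tested.

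The 10 copies as a whole held 0.0596% to 0.0978% of all counts, of which the chromosome 1 copies made up nearly all, at 0.0573% to 0.0938%. The share was 0.0610%, 0.0711% and 0.0665% in the Control libraries and 0.0596%, 0.0978% and 0.0850% in KSPAPN, and the groups overlapped. The genes of the mitochondrial genome held 8.70% ± 0.880 (SD, n = 3) of counts in Control and 10.5% ± 1.96 in KSPAPN (two-sided exact permutation test, p = 0.3). With the copies counted as mitochondrial, the shares were 8.77% and 10.6%, so the difference between the groups went from 1.81 to 1.82 percentage points. Relative to the mitochondrial counts of the same library, the copies held between 0.709% and 0.795%.

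The genes whose level followed the summed copies most closely were sought among 11066 other genes with a mean of at least 100 counts, by the standard deviation of the log2 ratio over the 6 libraries. The closest 5 were Lrrc19, mt-Nd1, mt-Nd4, Hmgn5 and mt-Cytb, with standard deviations of 0.07, 0.07, 0.08, 0.08 and 0.08 beside a median of 0.36 over all genes compared. Of the 24 mitochondrial genes compared, 6 were among the closest 20. For a single copy, the matching gene was not the closest gene in any case. mt-Atp6 ranked 11 for Gm10925, mt-Nd4 ranked 18 for Gm28439, mt-Co1 ranked 26 for Gm29216 and mt-Nd4l ranked 34 for Gm10222. The others on chromosome 1 were further away, with mt-Co2 at 100 for Gm28661, mt-Nd3 at 2011 for Gm28438 and mt-Co3 at 9417 for Gm28437. On chromosome 2, mt-Co2 ranked 112 for Gm13341, mt-Nd2 ranked 343 for Gm13339 and mt-Co1 ranked 620 for Gm13340. mt-Tp, the mitochondrial tRNA gene for proline, was the closest gene to Gm10925 and to Gm10222, with standard deviations of 0.03. Among themselves, pairs of chromosome 1 copies had a median standard deviation of 0.20, pairs on chromosome 2 of 0.35 and pairs between the chromosomes of 0.43.

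The libraries held 17183358 to 20871173 counts. Adipoq, the overexpressed gene, had 0 to 2 counts in the Control libraries and 17483 to 26811 in KSPAPN. The extraction text of the labels speaks of liver where the tissue is given as kidney. The 7 kidney markers summed to 2236 to 2972 FPKM over the libraries. Of the 6 liver markers, Alb and Ahsg were the lowest, at most at 4.46 and 0.35 FPKM. Apoa2 reached 10.3 FPKM, Apob 12.9 and Ttr 145. The mean of Ttr was 114 FPKM in Control and 50.7 in KSPAPN. The 6 liver markers summed to 546 to 864 FPKM in Control and 321 to 484 in KSPAPN, mostly from Cyp2e1, at 255 to 697, which the kidney also expresses, and 2 of the 5 that could be tested, Ttr and Cyp2e1, passed the edgeR test at an adjusted p of 0.05. The 5 adipocyte markers summed to 9.04 to 9.17 FPKM in Control and 9.93 to 13.8 in KSPAPN, with Plin1 and Lep near 0 and too low to test, and 0 of the other 3 past the test. Of the kidney markers, 1 of 7, Slc12a1, was past it. The part of these differences in the values of the copies was not tested.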

How the data were processed

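Poly(A) RNA was selected with oligo(dT) and sequenced at Novogene on an Illumina NovaSeq. For each of the 6 libraries the authors deposited read counts by gene, as whole numbers that were not normalized, beside FPKM. The deposited FPKM divide the counts by length and by a library total, where the lengths equal those of the longest GENCODE M21 transcript for the copies and mitochondrial genes. The submitters' processing notes name STAR 2.5, TopHat, HTSeq 0.6.1, DESeq2 and edgeR. The sources used here do not give the role or order of these tools, the build, the annotation, the strandedness or the treatment of reads with several matches. HTSeq as usually set leaves out a read that matches more than 1 place.

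The copies and gene lists were chosen with earlier results of these data known. Of 54532 rows, 54409 matched GENCODE M21 (GRCm38) by identifier. Transcripts were aligned with blastn 2.17.0, and each copy was matched to the mitochondrial gene with the longest alignment, then the highest identity. Counts were tested with edgeR 4.0.16 in R 4.3.3 (TMM, filter at a minimum count of 10 and total of 15, quasi-likelihood test, two-sided, Benjamini-Hochberg over 16017 genes), after a check on simulated data. Ratios of counts used exact permutation tests over libraries (scipy 1.17.1) and 95% Wilson intervals, which cover counting error only. Libraries held 17183358 to 20871173 counts. Each library pools 3 mice, so p-values measure the spread between pools. Named genes were the copies, their matching genes, the protein-coding and rRNA genes of the mitochondrial genome, Adipoq and the 5 genes closest to the summed copies. Col19a1, Myo3a, single tRNA genes and mt-Tp were named after their values were seen. DESeq2 1.42.0, limma 3.58.1, other scalings, filters, stretch lengths and the omission of single libraries were tried as alternatives.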

Additional observations from a re-analysis of the deposited data

How the results depend on the processing

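With DESeq2, relative log expression factors, total counts only, factors set without the mitochondrial genes, copies and Adipoq, or limma on log2(FPKM + 1) or log2(FPKM + 0.1), 0 copies and 0 of the 13 mitochondrial protein-coding genes passed an adjusted p of 0.05. Without the filter on low counts, 29418 genes were tested in edgeR. There, 2 copies (Gm28439, adjusted p = 0.00397, and Gm10925, 0.0335) and 3 protein-coding genes passed. The protein-coding genes included mt-Atp6, higher in KSPAPN, and mt-Co3, lower. Fold changes were within 0.01 of those above, and the cause was not tested. Leaving out 1 library gave 0 to 2 copies and 0 to 1 protein-coding genes. The calls came without KSPAPN replicate 1, and the protein-coding gene was mt-Co2. Deviations of libraries of the same number correlated weakly (0.09, 0.23 and 0.19 for replicates 1 to 3), but each was highest for the library's own number. The edgeR fit with a replicate block called 929 genes in place of 424, 0 copies and 1 protein-coding gene (mt-Nd6). The copies nearest the threshold in that fit were Gm28439 (0.41, SE 0.10, adjusted p = 0.0553), Gm10222 (0.35, SE 0.11, adjusted p = 0.0978) and Gm10925 (0.32, SE 0.10, adjusted p = 0.105). Their SE were smaller than without the block, while those of Gm13340 and Gm13341 were larger. The mean ratio difference within replicate numbers was unaltered by construction (median over the 10 copies 0.0021).

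Of 140 alternative fold changes of the copies, 126 kept direction and side of the threshold and 10 turned, all on leaving out a library, with ranges of -0.038 to 0.34 for Gm29216, -0.053 to 0.31 for Gm28661, -0.025 to 0.36 for Gm28437, -0.14 to 0.43 for Gm28438, -0.17 to 0.41 for Gm13339 and -0.21 to 0.28 for Gm13340. For matching genes the ranges that crossed 0 were -0.013 to 0.26 for mt-Co1, -0.63 to 0.0084 for mt-Co3, -0.72 to 0.39 for mt-Nd3 and -0.10 to 0.29 for mt-Nd4l. For log2 ratios they were -0.057 to 0.074 for Gm29216, -0.066 to 0.53 for Gm28438, -0.26 to 0.19 for Gm13340 and -0.23 to 0.36 for Gm13341. Against the sum of all mitochondrial genes, the differences of Gm10925, Gm28437 and Gm28438 turned to 0.13, -0.078 and -0.049. The difference in the share held by the copies was 0.0146 percentage points of counts and 0.0667 of summed FPKM. At 50 and 150 bases, the median share of identical stretches in the chromosome 2 copies moved from 7.30% to 27.5% and 0%, and in those on chromosome 1 stayed at 100%. The comparison with the whole mitochondrial genome on both strands was not run, since transcripts alone were used here.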
